A study of Cyprinus carpio 'koi' with 9 samples.

Results

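Red skin (RS) was compared with white skin (WS) of Koi carp, the ornamental color form of the common carp, through 3 RS and 3 WS libraries out of 9 deposited skin libraries. The members were chosen by their labels alone, the skin color red (T-Redskin1, T-Redskin2 and T-Redskin3) against the skin color white (T-Whiteskin1, T-Whiteskin2 and T-Whiteskin3). Both groups were untreated skin of strain FFRC, taken under MS-222 anesthesia from fish carrying black, white and red spots at the same time, and no genotype or age was given. The other 3 libraries are black skin (BS) of the same fish and are given below only as values. The labels state that the patches came from 3 carp, so a library number is treated as a fish, although no label says so in words. Each patch is 1 library of whole skin, which holds many cell types, so fewer cells of a type and less RNA per cell cannot be told apart.

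The color of fish skin comes from pigment cells of neural crest origin. Xanthophores and erythrophores hold yellow to red carotenoids and pteridines, melanophores hold melanin, and iridophores reflect light from purine crystals. Carotenoids cannot be made by the fish. They are taken up from food by lipid receptors, are cleaved or oxidized by enzymes, and are stored with fat in droplets. White patches largely lack both the red and the black pigment.

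Each library lists the same 446614 assembled features, named by Trinity, a program that joins reads into transcripts. Identifiers are shortened here by leaving out the word TRINITY. A feature whose name starts with GG was built from reads grouped by their place on the common carp genome, and the number after GG is that group. A feature whose name starts with DN came from the general read graph. Names and functions below are those that the study's supplementary annotation gives (KEGG orthologs and GO terms), and several features can carry 1 name because the carp genome is duplicated or because a gene was assembled in pieces. The RS libraries held between 15242020 and 20643139 expected counts and the WS libraries between 13773868 and 23058887. T-Redskin1 stood apart. Its 10 most abundant features took 43.6% of all counts, against 6.2% to 24.7% in the other 5 libraries, and its scaling factor was 0.455 against 1.01 to 1.35 elsewhere.

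The study designed PCR primers for several genes described below. The pairs for Mitf and Asip, regulators described below that differed in opposite directions, and for the lncRNA whose digits are those of GG_178219_c1_g1 are shown as the only sequences of these genes used here, from 5′ to 3′ and in lower case throughout. Whether the primers lie within the features counted below was not examined.
Mitf forward: cgaagtaccacatccagcagac
Mitf reverse: ttgtccatgagcatgtcctcca
Asip forward: aactgcgtgccgctcttga
Asip reverse: taaacaagcctttgggatcgg
Ccr_lnc17821911 forward: accccaaggttccaattttc
Ccr_lnc17821911 reverse: ggggtctcagtcaaacctga

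The widest ratios toward RS lay in a small set of features that were present in all 3 RS libraries and absent or nearly absent in WS. It included features named for a triglyceride lipase, a P450-type oxygenase, 2 oxidoreductases, the transcription factor Mitf and a light-sensing receptor. In the other direction, 2 features named for agouti signaling protein (Asip) and a group of mostly unnamed features at 0 in every RS library were higher in WS. Tested features at 0 in a whole group numbered 11 for WS and 29 for RS. They had enough counts only through the other color. The features were ranked on these same values, so the pattern of presence in 1 color and absence in the other is not independent evidence. Of 66740 features with enough counts, 241 (0.361%) were at least 2-fold higher in RS in all 3 same-numbered pairs, and 403 (0.604%) were at least 2-fold higher in WS. These 644 features are called consistent below. An annotation was available for 15.4% of the 241 and 3.23% of the 403, against 0.204% of all tested features. It came from the study's lists of differing mRNAs and of lncRNA targets. Which features have a name therefore depended on what the study had selected on these libraries. The limit of log2 2 in every pair left 48 (0.0719%) toward RS and 65 (0.0974%) toward WS, and that of log2 3 left 25 (0.0375%) and 21 (0.0315%). The same sign without any limit was found in 6433 (9.64%) and 8970 (13.4%). The ratios were taken on log2 CPM, the counts scaled to library size, after TMM scaling with a prior count of 2.

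No feature passed an adjusted p of 0.05 in edgeR's quasi-likelihood test with the library number as a block (0.0%). The smallest adjusted p was 0.639. At an unadjusted p under 0.05, 434 features were higher in RS (0.65%) and 655 in WS (0.981%), in total 1.63% of the tested features. Without the block 271 features reached that level in place of 1089. Other tools gave other counts at the adjusted threshold with a 2-fold change, namely 95 for edgeR's likelihood ratio test (53 toward RS, 0.0794%, and 42 toward WS, 0.0629%), 220 for DESeq2 (134 toward RS, 0.201%, and 86 toward WS, 0.129%), 53 for edgeR's exact test without a block, and 0 for limma-voom. The fold changes below come from the quasi-likelihood fit with their standard errors (SE), none of them passed its adjusted threshold, and the levels and ratios describe these 3 pairs only. The SE was derived from the test statistic and can be too small where 1 color had counts at or near 0.

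The balance between the directions depended on the scaling. With library totals in place of TMM, the median log2 fold change of all tested features went from -0.06 to -0.46, and 119 features were consistent toward RS against 737 toward WS. The 2 FPKM scales gave 52 against 297 and 140 against 958. Among features averaging at least 50 counts the balance was 74 against 62. The difference between the scalings was largest in pair 1, where the median ratio of all tested features went from -0.11 to -1.17, since the TMM factor of T-Redskin1 raises its scaled values. Of the 241 features toward RS, 105 also met the limit when library totals were used and 19 turned direction in pair 1, and of the 403 toward WS, 352 and 0 did so. With pair 1 left out, 1061 features met the same 2-fold limit toward RS in both remaining pairs and 1091 toward WS.

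**Figure D1:**
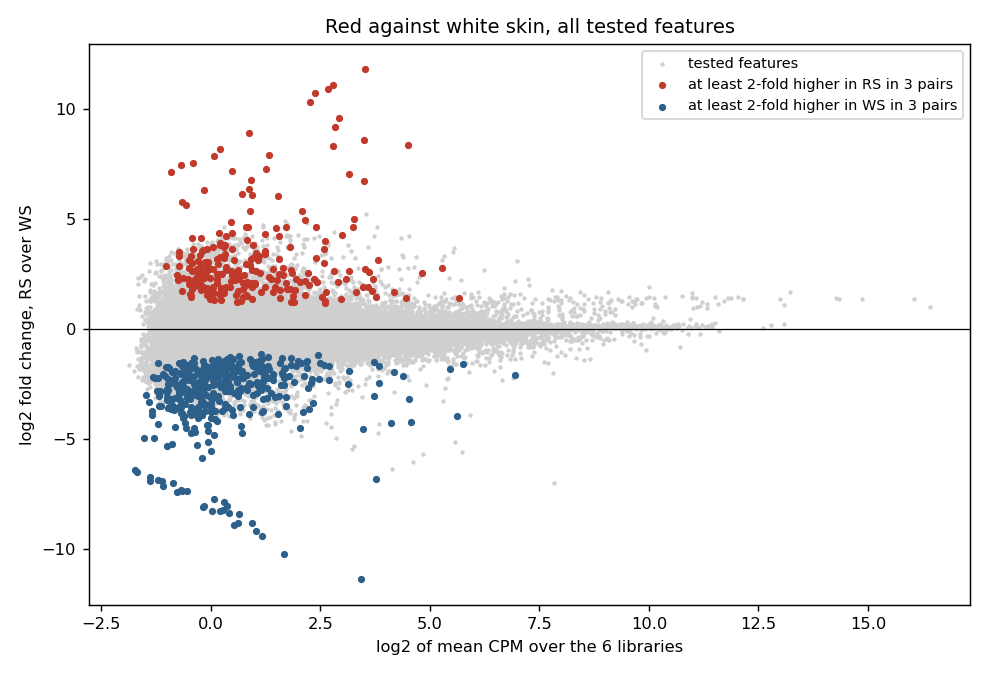
Fold change of every tested feature (vertical axis, log2, RS over WS) against its mean abundance (horizontal axis, log2 of CPM over the 6 libraries). Grey points are the 66740 tested features, red points the 241 consistent toward RS and blue points the 403 consistent toward WS; the blue string at the lower left is made mostly of features at 0 in all RS libraries.

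The consistent features were described first by enzymes of fat. GG_91351_c60_g1, annotated as Pnpla2, the lipase that starts the release of fatty acids from stored triglyceride, had 52, 277 and 331 counts in T-Redskin1, T-Redskin2 and T-Redskin3 and 0 in all 3 WS libraries. It was at least 264-fold higher in RS, taking a floor of 3 counts over the WS group. Such a fold, here and below, uses counts pooled over the 3 libraries of each color and is not a lower limit for each pair. BS had 22, 85 and 0 counts, so T-Blackskin1 and T-Blackskin2 were above all WS libraries and T-Blackskin3 was not. A second Pnpla2 feature, DN155648_c5_g1, had 6, 92 and 103 counts in RS. WS had 4, 4 and 11, and the log2 fold change was 3.26 ± 0.80. The T-Redskin1 count lay within those of WS, but after scaling the groups did not overlap and the log2 ratio of pair 1 was 1.19 (0.23 with library totals). The other 2 Pnpla2 features were at 0 in WS and T-Redskin1. DN161217_c4_g1 had 58 and 12 counts and DN172822_c1_g2 had 95 and 2 in T-Redskin2 and T-Redskin3, too few to be tested.

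Features under the term lipid storage followed. GG_102570_c89_g1 had 153, 610 and 497 counts in RS and 48, 50 and 62 in WS, all RS libraries above all WS libraries, with a log2 fold change of 3.16 ± 0.33. GG_170293_c19_g1 was at 37, 157 and 663 in RS against 5, 0 and 0 in WS. DN156472_c1_g1 had 41, 47 and 424 counts against 22, 1 and 11, and here the T-Whiteskin1 count came closer to T-Redskin1 than in the other 2 (log2 ratio of pair 1 1.71, or 0.59 with library totals). Apolipoprotein E, a carrier of lipids between cells, was abundant (GG_27564_c4_g1, mean 527 ± 729 FPKM in RS and 105 ± 44.9 in WS, SD, n = 3). The RS mean rested on T-Redskin2, with 30646 counts against 685 and 3146 in T-Redskin1 and T-Redskin3, and RS and WS overlapped (log2 fold change 1.40 ± 0.76). Of the 11 features in the list for triglycerides and lipid droplets, 4 were tested, 2 had an unadjusted p under 0.05 toward RS and none toward WS, beside 0.65% and 0.981% of all tested features, and the median log2 fold change was 2.33 against -0.06 for all tested features. Like the other function lists below, this list was drawn from features that the study selected on these same libraries. An excess over the shares of all tested features is therefore not independent evidence.

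Oxidoreductases were among the features with the widest gap. GG_80514_c1_g1, with the terms of a heme-binding P450-type enzyme that oxidizes arachidonic acid and steroids, had 44, 728 and 124 counts in RS and 0, 3 and 0 in WS (log2 fold change 8.31 ± 0.63). GG_128878_c49_g1 and DN160036_c0_g1, annotated only as oxidoreductases, had 30, 716 and 230 and 31, 172 and 67 counts in RS and a single count, in T-Whiteskin2, each in WS. Their log2 fold changes were 9.59 ± 0.59 and 7.90 ± 0.83. Since WS held at most 1 count of either, the size of these ratios depends on the prior count. With so few counts in WS, the SE values of all these oxidoreductases understate the uncertainty of the ratios. BS held fewer counts than RS in each of the 3 same-numbered patches for these oxidoreductases, for example 13, 164 and 1 for GG_128878_c49_g1.

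Carotenoid features were low in count. All 5 features annotated as beta-carotene 15,15'-monooxygenase, which cleaves beta-carotene into retinal, fell below the filter, and they were singled out after their values were seen. GG_160384_c0_g1 had 5, 116 and 86 counts in RS and 0, 0 and 1 in WS. GG_160839_c1_g1 had 8, 187 and 84 against 5, 1 and 2, and GG_26484_c3_g1 had 5, 92 and 39 against 0 in each WS library. DN174873_c9_g1 was at 8, 0 and 101 against 0, 0 and 3, so that its T-Redskin2 value equalled T-Whiteskin2, and the short GG_123121_c24_g1 had 5, 15 and 42 against 3, 1 and 2. The sixth feature of the carotenoid and retinoid list, annotated as aldehyde oxidase (GG_111555_c59_g1), was at 0 in RS and had 0, 48 and 16 counts in WS. When the filter was dropped, 4 of the 6 were consistent toward RS and none toward WS, beside 0.309% and 0.52% of the 279939 features then tested. Among these 4, GG_160839_c1_g1 and GG_123121_c24_g1 had TMM-scaled log2 ratios of 1.23 and 1.17 in pair 1. Their deposited FPKM in pair 1 were less than 2-fold apart, 0.42 and 3.23 in RS against 0.31 and 2.21 in WS. At an unadjusted p under 0.05 the fit without the filter placed 5 of the 6 toward RS and 1 toward WS, beside 0.736% and 1.13%.

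Scarb1 is a cell surface receptor for high-density lipoprotein that also takes up carotenoids. DN160521_c4_g5 (Scarb1) had 40, 398 and 185 counts in RS and 20, 30 and 23 in WS, with no overlap and a log2 fold change of 3.0 ± 0.49. Its ratio in pair 1 was 1.80 with TMM and 0.68 with library totals. The second Scarb1 feature, GG_187390_c62_g1, had 28, 724 and 781 against 34, 90 and 50. Its T-Redskin1 count was below T-Whiteskin1, and after scaling the ratio of pair 1 was 0.58 on the log2 scale (-0.53 with library totals) against 2.98 and 4.2 in pairs 2 and 3 (log2 fold change 2.73 ± 0.79). The third tested feature of the list for fat and vitamin uptake, the secretory phospholipase A2 feature DN169894_c1_g4, differed in sign between pairs (1, 6 and 24 counts in RS, 36, 1 and 69 in WS). Of the 8 features in that list, 2 had an unadjusted p under 0.05 toward RS and none toward WS, beside 0.65% and 0.981% of all tested features, and the median log2 fold change of the tested 3 was 2.73.

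**Figure D2:**
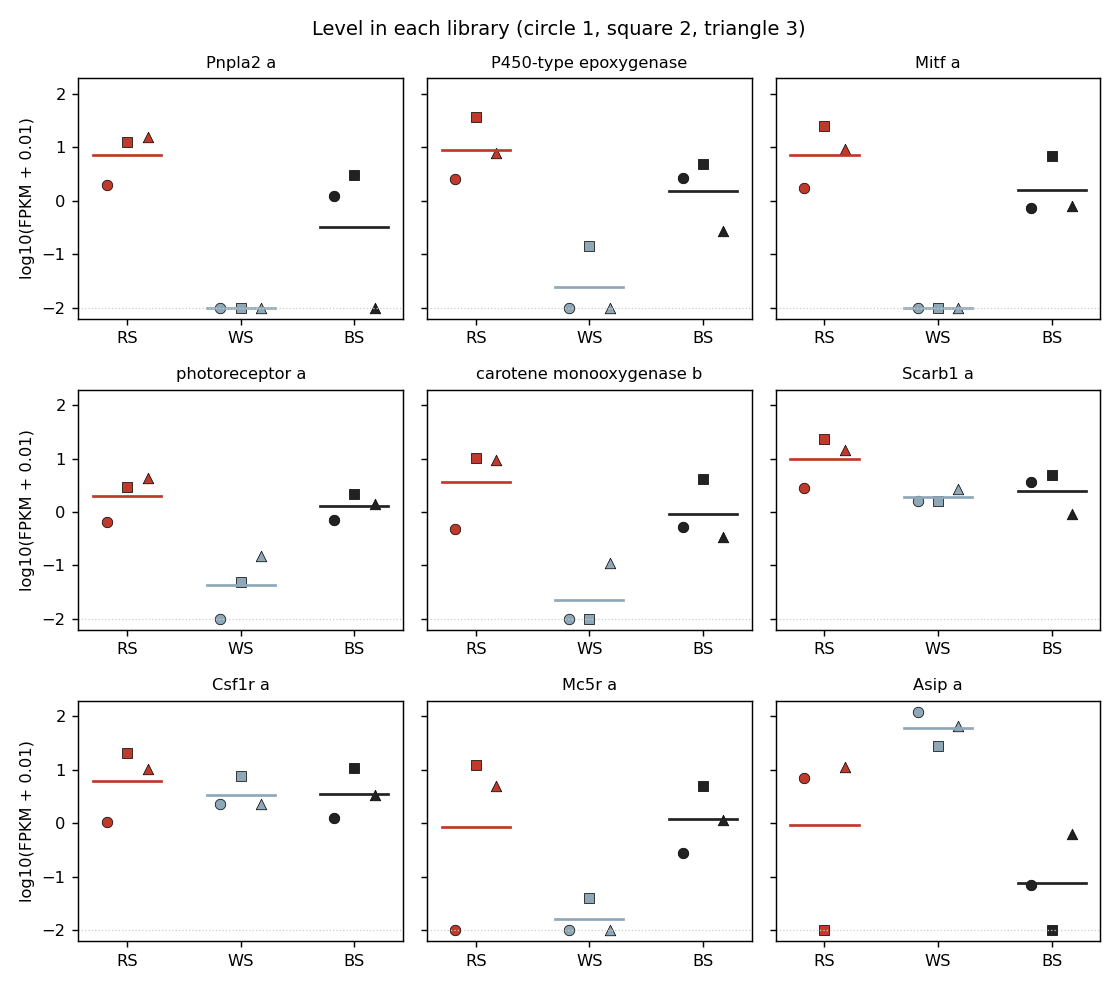
Level of 9 features in every library as log10(FPKM + 0.01) (vertical axis), for RS, WS and BS (horizontal axis); circles, squares and triangles are libraries 1, 2 and 3, bars are means of the plotted values, and the dotted line marks a value of 0 FPKM. Pnpla2 a (GG_91351_c60_g1) and Mitf a (DN157234_c1_g1) lie on the dotted line in all 3 WS libraries, and Asip a (DN166467_c1_g1) is highest in WS. The other panels are GG_80514_c1_g1 (P450-type epoxygenase), GG_42678_c5_g1 (photoreceptor a), GG_160384_c0_g1 (carotene monooxygenase b), DN160521_c4_g5 (Scarb1 a), DN172615_c7_g1 (Csf1r a) and GG_56224_c5_g1 (Mc5r a).

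Regulators of pigment cells were next. Mitf is a transcription factor needed for melanophores, and in mammals also for osteoclasts and mast cells. DN157234_c1_g1 (Mitf) had 41, 455 and 135 counts in RS and 0 in all WS libraries, at least 253-fold higher by the floor of 3 counts over the group. GG_173596_c90_g1, also Mitf, had 27, 1426 and 154 counts in RS and 0, 5 and 6 in WS (log2 fold change 6.73 ± 0.84). BS held both, with 8, 210 and 20 and 41, 583 and 108 counts. A shorter Mitf feature (GG_59867_c110_g1, 633 bp) had 13, 31 and 13 counts against 0, at least 22.8-fold higher. The last one, GG_152857_c1_g1, was at 0 in T-Redskin1 and in WS and had 32 and 26 counts in T-Redskin2 and T-Redskin3.

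Csf1r, a receptor tyrosine kinase that zebrafish xanthophores need to migrate and differentiate, was present in both colors. DN172615_c7_g1 (Csf1r) had 33, 513 and 296 counts in RS and 17, 138 and 41 in WS, and DN156681_c7_g2 had 18, 425 and 246 against 4, 213 and 44. The log2 fold changes were 2.30 ± 0.39 and 2.15 ± 0.51. On scaled CPM, RS was above WS within every pair for both. Pair 2 of DN156681_c7_g2 lay at the limit, with 1.00, and pair 1 of DN172615_c7_g1 went from 1.75 to 0.63 with library totals. In the deposited FPKM, pair 1 of DN172615_c7_g1 turned direction, with 1.04 in T-Redskin1 and 2.28 in T-Whiteskin1. Both features overlapped between the groups because T-Redskin1 was lower than T-Whiteskin2. Their levels in WS were 4.06 ± 3.11 and 4.07 ± 4.58 FPKM (SD, n = 3), in contrast to the Mitf features, which were at or near 0 there. The third feature of the xanthophore list, DN165586_c3_g1, had 2, 99 and 65 counts in RS against 4, 0 and 0 in WS and was not tested. The 2 tested features of that list both had an unadjusted p under 0.05 toward RS, beside 0.65% of all tested features, with a median log2 fold change of 2.23. A feature sharing most of its terms on cell fate and neural tube patterning, GG_160599_c67_g2, had 10, 421 and 137 against 2, 21 and 0.

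Ednrb, the endothelin receptor that neural crest and iridophore precursors carry, had 66, 397 and 191 counts in RS and 39, 53 and 22 in WS (DN157154_c7_g1, log2 fold change 2.66 ± 0.45). The pair 1 ratio was 1.60, or 0.47 with library totals, and the deposited FPKM turned direction there (2.07 in T-Redskin1, 2.28 in T-Whiteskin1). In BS the counts were 26, 60 and 159. Features with the terms Schwann cell development, enteric nervous system development and melanocyte differentiation, which are typical of neural crest regulators, numbered 4. The most abundant, GG_74172_c3_g1, had 68, 1101 and 220 counts against 44, 95 and 41 (log2 fold change 2.61 ± 0.47), and GG_111882_c1_g1 and DN164493_c1_g1 gave 2.39 ± 0.66 and 2.52 ± 0.69. With library totals the pair 1 ratios of these 3 features were 0.34, -0.53 and 0.03. The remaining feature was at 0 in WS and T-Redskin1. Among the 16 tested of 34 melanocyte and melanosome features, 9 had an unadjusted p under 0.05 toward RS and 1 toward WS, beside 0.65% and 0.981% of all tested features, and the median log2 fold change was 2.35.

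The 3 features annotated as melanocortin receptors, which bind the hormone that agouti proteins oppose, were all too low to be tested. The feature named Mc5r (GG_56224_c5_g1) had 0, 415 and 133 counts in RS and 0, 1 and 0 in WS. GG_112640_c6_g2 had 0, 234 and 47 against 0, 0 and 2, and DN162289_c1_g1 had 2, 59 and 18 against 0, 6 and 2. Pair 1 was at 0 in both colors for the first 2 of them, and these differences therefore came from pairs 2 and 3.

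Among the light-sensing features, 1 was consistent toward RS. GG_42678_c5_g1, with the terms of a retinal-binding G-protein coupled photoreceptor, had 19, 136 and 147 counts in RS and 0, 1 and 5 in WS (log2 fold change 6.04 ± 0.75), and 24, 123 and 55 in BS. DN168731_c0_g1, with the same leading terms, had 16, 208 and 227 against 17, 3 and 13, so that only pair 1 failed the 2-fold limit (log2 ratio 0.74, or -0.33 with library totals). Of the 7 features in the list only these 2 were tested, both had an unadjusted p under 0.05 toward RS, beside 0.65% of all tested features, and their median log2 fold change was 4.89. The other 5 had 0 to 4 counts in each WS library and up to 105 in RS, and 3 of the 7 were at 0 in T-Redskin1. The feature with 105 counts, DN152672_c0_g1, had lysosome and autophagy terms beside visual perception.

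The 3 features annotated as Rasd1, a small GTPase of circadian and hormonal signaling in mammals, were consistent toward RS. GG_185923_c0_g1 had 91, 164 and 132 counts in RS and 36, 0 and 40 in WS, DN158644_c0_g1 had 160, 339 and 263 against 87, 52 and 135, and GG_186166_c0_g1 had 195, 177 and 355 against 175, 28 and 150. Their log2 fold changes were 3.22 ± 1.19, 1.90 ± 0.37 and 1.72 ± 0.39. With library totals the ratios of pair 1 were 1.03, 0.59 and -0.12, so that the direction of GG_186166_c0_g1 in pair 1 turned with the scaling. For each of these features BS had fewer counts than RS in every same-numbered patch.

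**Figure D3:**
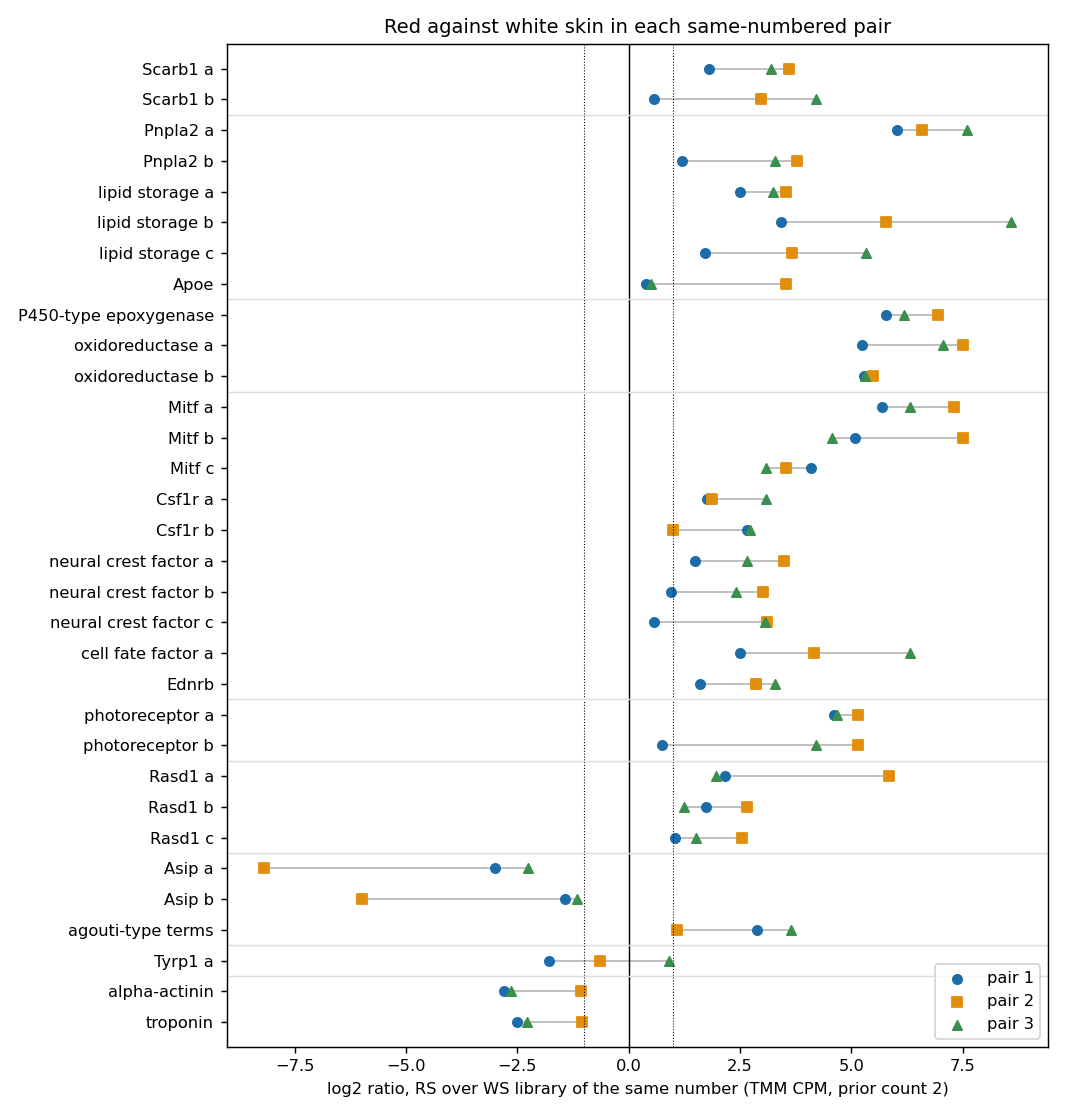
Log2 ratio of RS over WS in each same-numbered pair (horizontal axis, TMM CPM with a prior count of 2) for the tested features described here, grouped by role (vertical axis); circles, squares and triangles are pairs 1, 2 and 3, and dotted lines mark a 2-fold difference. Letters follow the order in the text, except that neural crest factor b is DN164493_c1_g1 and c is GG_111882_c1_g1; Mitf a to c lie between 3.09 and 7.50, and Asip a and b lie below -1 in every pair.

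The 2 features annotated as Asip, a secreted antagonist of melanocortin receptors that marks pale skin in many vertebrates, went the other way. DN166467_c1_g1 (Asip) had 2199, 856 and 1289 counts in WS and 149, 0 and 217 in RS, without overlap, and 1, 0 and 15 in BS. The level was 71.3 ± 47.5 FPKM in WS, 6.08 ± 5.66 in RS and 0.223 ± 0.336 in BS (SD, n = 3), so that the RS mean lay between those of WS and BS. The log2 fold change of RS over WS was -3.97 ± 1.5. The shallower GG_57821_c1_g1 had 524, 184 and 360 counts in WS, 106, 0 and 131 in RS and 0 in every BS library. After scaling T-Whiteskin2 lay below T-Redskin1 and T-Redskin3, the log2 fold change was -2.46 ± 1.25, and the pair ratios were -1.42, -5.99 and -1.15. Another feature with the same hormone signaling and receptor binding terms but no KEGG name, GG_106944_c3_g1, was higher in RS, with 85, 88 and 516 counts against 20, 40 and 49.

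Enzymes of melanin synthesis did not share 1 direction. A tyrosinase feature (GG_118902_c0_g1) had 3, 73 and 27 counts in RS and 0, 3 and 2 in WS, while the tyrosinase-related protein 1 feature DN162538_c5_g1 had 1, 16 and 3 against 10, 27 and 1. In a second Tyrp1 feature, GG_142711_c33_g1, T-Redskin2 had 159 counts, T-Redskin1 and T-Redskin3 had 8 and 3, and WS had 23, 0 and 0, beside 174, 1769 and 263 in BS. T-Redskin2 also stood apart for melanosome features with the term eye pigmentation. DN160804_c0_g1 and GG_93899_c30_g1 had 384 and 347 counts there and at most 1 in T-Redskin1, T-Redskin3 and T-Whiteskin1, at most 2 in T-Whiteskin2 and T-Whiteskin3, and 3636 and 1937 in T-Blackskin2. How far the T-Redskin2 values of Mitf and the neural crest features moved with these was not tested.

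Of the features for purine and pteridine pigments, 8 in all, none was tested. Dihydrofolate reductase (DN151279_c0_g1), an enzyme of the folate and pteridine pathways, had 0, 170 and 176 counts in RS and 4, 5 and 2 in WS, so that pair 1 pointed the other way. The remaining 7, among them the tyrosinase features GG_118902_c0_g1 and GG_98757_c0_g1, which are melanin enzymes, had no common direction.

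Muscle features were read as markers of tissue under the skin. The alpha-actinin feature DN164838_c2_g1 had 9, 140 and 181 counts in WS and 0, 65 and 22 in RS (log2 fold change -2.20 ± 0.72), and the troponin complex feature DN162640_c1_g1, which is outside the list, had 7, 32 and 68 against 0, 14 and 10. In T-Blackskin1 they had 8768 and 725 counts. Summed over all 25 muscle features, the level was 39.5, 48.5 and 160 CPM in RS and 32.3, 51.7 and 90.6 in WS, with 15 to 18 of 25 at 0 in RS and 5 to 14 in WS. The cardiac and slow myosin heavy chain features were at 0 to 4 counts in all RS libraries and reached 121 in T-Whiteskin3. A muscle-list feature with general myosin terms, GG_23784_c2_g1, was higher in RS (53, 817 and 723 counts against 38, 402 and 136, with a pair 1 ratio of 1.32, or 0.20 with library totals). DN158776_c3_g3, a short muscle-list feature with similar myosin terms, had 506, 0 and 825 counts in RS and 228, 0 and 7 in WS. It was higher in RS in pairs 1 and 3 and at 0 in both colors of pair 2 (log2 fold change 4.22 ± 1.53). Across the list, 5 were tested, with an unadjusted p under 0.05 for 2 toward RS and 1 toward WS, and a median of -0.11. The tight junction list shares most of its features with muscle, and of its 4 tested features 2 were toward RS and 1 toward WS at that level, with a median of 0.59. The shares of all tested features were 0.65% and 0.981%. The blood and immune list summed to 28.3, 54.1 and 48.2 CPM in RS and 13.1, 34.9 and 18.3 in WS, with 3 tested features, 2 of them the Csf1r features named above, and a median of 2.15. Its oxygen carrier feature was at 0 in 5 of the 6 libraries and had 74 counts in T-Whiteskin2. The part of muscle and blood cells in the results above was not tested. All function lists, here and in the paragraphs above, were drawn from features that the study selected on these same libraries. Their counts and directions are not independent evidence.

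The most consistent feature of all had no annotation. DN168907_c1_g3 (2001 bp) had 164, 1125 and 1099 counts in RS, 1, 8 and 0 in WS and 80, 306 and 9 in BS, with a log2 ratio of at least 6.70 in every pair. GG_128354_c3_g1 (2025 bp), also without annotation, had 40, 629 and 628 counts in RS and 0 in WS, at least 519-fold higher by the floor of 3 counts over the group. GG_98019_c43_g1, under the term transmembrane transport, had 25, 448 and 331 against 0, and at least 322-fold. GG_123531_c23_g1, annotated as a sequence-specific transcription regulator in development, had 69, 287 and 403 counts in RS and 5, 20 and 22 in WS, with pair ratios between 3.67 and 4.36. In pairs 1 and 2 its deposited FPKM values lay closer, with 2.04 and 5.85 in RS against 1.23 and 1.34 in WS. In pair 3 they were 11.63 and 0.57.

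Among the more abundant consistent features the gaps were smaller, and those in pair 1 depended on the scaling. DN155578_c2_g3 had 533, 195 and 1047 counts in RS and 148, 39 and 215 in WS, 2.71, 2.25 and 2.57 on the log2 scale. With library totals these were 1.56, 2.42 and 2.32, and in pair 1 the deposited FPKM values were 45.5 and 37.6. DN151714_c0_g1 had 906, 818 and 626 against 456, 65 and 105, and a pair 1 ratio of 1.87, or 0.71 with library totals. GG_111617_c18_g1, the most abundant consistent feature toward RS, had 1021, 87 and 1170 against 769, 28 and 579, so that pair 2 was low in both colors and the groups overlapped (log2 fold change 1.40 ± 0.24). Pair 1 of this feature was over 2-fold apart only with TMM, with 1.29 against 0.13 for library totals and 78.0 against 70.0 FPKM. None of these 3 has an annotation in the sources used here.

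Most features consistent toward WS were low in count. Of the 403, 29 were at 0 in all 3 RS libraries, and 51.1% were at 0 in T-Redskin1, against 11.9% of all tested features. Of the 241 toward RS, 11 were at 0 in all WS libraries, and 30.3% were at 0 in T-Whiteskin1 against 4.48%. Those at 0 in a whole group passed the filter only through the other group. GG_43458_c110_g1, under regulation of transcription, had 148, 72 and 974 counts in WS and 0 in RS, at least 332-fold higher in WS by 3 counts over the RS group. That pooled fold rested mostly on T-Whiteskin3, and the log2 ratios of the pairs were -6.64, -4.68 and -8.85. GG_73237_c59_g1 (33, 346 and 70 counts) and GG_176150_c53_g1 (64, 103 and 72 counts) were at least 125-fold and 66.4-fold higher, both without annotation. The cilium assembly feature DN148006_c0_g1 had 44, 82 and 55 counts in WS and 0 in all RS and BS libraries, at least 50.3-fold. GG_69169_c0_g1, with the terms of a DNA end repair kinase and phosphatase, had 81, 50 and 71 counts in WS, 0 in RS, and 55, 48 and 114 in BS, so that only red skin lacked counts among the 3 colors (at least 56.1-fold).

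Other WS features were present in both colors. GG_78402_c3_g1, annotated as the DNA damage kinase Atr, had 58, 286 and 23 counts in WS and 2, 23 and 6 in RS (log2 fold change -3.06 ± 0.65). GG_151213_c135_g2, the most abundant of the 403, had 319, 3228 and 7202 counts in WS and 13, 914 and 2892 in RS, and its partner in the same assembly component, GG_151213_c135_g1, had 78, 1433 and 2367 against 3, 533 and 961. The ratios of the first were -3.66, -1.81 and -1.02. GG_49903_c118_g1 and GG_49903_c104_g1, from 1 group of reads, were likewise both higher in WS (log2 fold change -1.60 ± 0.34 and -1.94 ± 0.47). DN172710_c0_g1 had 352, 1680 and 597 counts in WS and 12, 76 and 230 in RS (-3.19 ± 0.81).

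Groups of reads or graphs that held several consistent features numbered 18, and in 13 of them all consistent features lay in 1 direction. GG_186344 held 3 toward WS among 16 tested features. In DN157234_c1 the Mitf feature toward RS was joined by DN157234_c1_g2, annotated with 3-dehydroquinate synthase activity, which had 14, 81 and 36 counts in WS and 0, 3 and 0 in RS (log2 fold change -5.54 ± 1.12). It was the sole component, out of 5381 with more than 1 tested feature, with a consistent feature in each direction. Consistent features toward RS and WS had median lengths of 1100 and 1163 bp, against 1235 bp for all tested features, and 53.9% and 60.3% were genome-guided against 57.0%. Their median abundance was lower, 1.57 and 1.03 CPM against 2.68. Groups did not overlap in scaled CPM for 135 of the 241 and 223 of the 403, beside 1.38% and 2.04% of all tested features toward RS and WS, and since the members were chosen on the same values nothing is read from these counts.

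The study's own RS against WS lists held 47 of the 241 consistent features toward RS (19.5%) and 16 of the 403 toward WS (3.97%), beside 0.156% of all tested features. The other 194 and 387 lay outside them. From its 46 lncRNAs, long RNAs with no predicted protein, 17 passed the filter here, of which 7 were consistent toward RS and 2 toward WS, while 8 differed in sign between pairs, beside 0.361% and 0.604% of all tested features that were consistent. From its 380 mRNAs 87 passed, with 40 and 14 consistent. Both lists were chosen on these libraries, and their counts are not independent evidence.

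The lncRNA GG_7652_c0_g1 (612 bp) had 23, 40 and 384 counts in RS and 0 in WS, at least 179-fold higher in RS by the floor of 3 counts over the group, and only 11, 2 and 1 counts in BS. That pooled fold rested mostly on T-Redskin3, and the log2 ratios of the pairs were 4.87, 3.88 and 7.8. GG_26484_c2_g1 had 42, 157 and 203 against 2, 0 and 14 (log2 fold change 5.36 ± 0.94). It comes from the same group of genome-mapped reads, GG_26484, as one of the beta-carotene monooxygenase features above. DN161191_c1_g1 had 54, 724 and 335 against 14, 3 and 13, GG_73374_c191_g1 had 11, 118 and 84 against 0, 0 and 2, and GG_130075_c2_g1 had 17, 144 and 48 against 1, 0 and 1. GG_178219_c1_g1 had 283, 408 and 163 counts in RS and 140, 56 and 45 in WS (2.30 ± 0.31), and BS had 427, 528 and 130. Its ratios were 1.88, 2.81 and 2.10 with TMM and 0.73, 2.98 and 1.86 with library totals. GG_1525_c27_g1 had 19, 235 and 56 against 11, 6 and 32, with ratios of 0.46 and 0.82 in pairs 1 and 3 for library totals. Toward WS, GG_135056_c65_g1 had 71, 159 and 44 counts against 0 in RS, at least 76.1-fold, and GG_18766_c95_g1 had 61, 126 and 292 against 5, 7 and 12 (log2 fold change -3.78 ± 0.50).

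Across the 3 colors, the median level of the 241 features toward RS was 1.94 to 2.48 CPM in the RS libraries, 0.247 to 0.509 in WS and 0.936 to 1.57 in BS. For the 403 toward WS it was 1.2 to 1.73 CPM in WS, 0.0 to 0.359 in RS and 0.588 to 1.07 in BS. The RS and WS values follow from how the features were chosen. For features chosen in this way a library outside the choice tends to lie between the groups, so nothing is read from the BS medians. Over all tested features the medians were 2.08 to 2.34 CPM in RS, 2.28 to 2.34 in WS and 2.26 to 2.41 in BS.

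**Figure D4:**
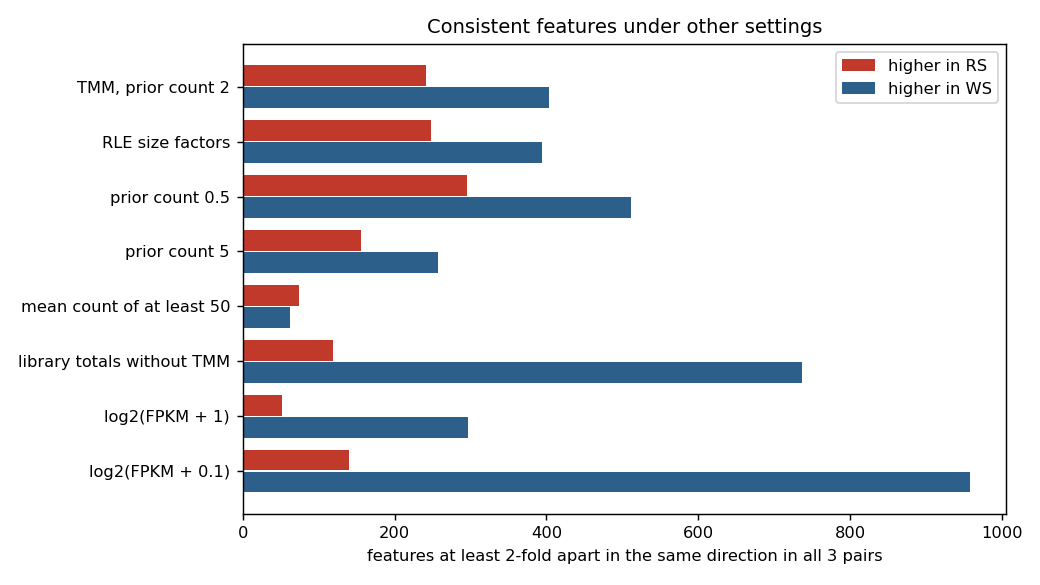
Number of features (horizontal axis) at least 2-fold apart in the same direction in all 3 pairs under each scaling, prior count or filter (vertical axis); red bars are features higher in RS and blue bars those higher in WS. The counts toward WS were larger except among features averaging at least 50 counts, where 74 were toward RS and 62 toward WS.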

How the data were processed

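The data were RSEM tables of 3 RS and 3 WS libraries, with 3 BS libraries as values. The authors mapped poly(A) reads to the common carp genome (TopHat2 2.0.10 in the submitters' processing notes), assembled them with Trinity, clustered transcripts with CD-HIT and quantified them with RSEM (1.2.21). The deposited expected counts are unnormalized estimates of read pairs per feature and were rounded to whole numbers. The deposited FPKM values are scaled by the authors for effective length and library total, and the deposited TPM values were read only to check their totals. Rows of the study's supplementary lists gave names and terms only; 431 descriptions came from a list held in part.

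Features were filtered with filterByExpr (minimum count 10), scaled by TMM and tested with edgeR 4.0.16 (glmQLFit, glmQLFTest) in R 4.3.3, with the library number as a block and Benjamini-Hochberg adjustment (adjusted p at most 0.05, absolute log2 fold change at least 1). DESeq2 1.42.0 and limma 3.58.1 were alternatives. A standard error was the fold change divided by the root of F, which is not a sound measure of precision where 1 group is near 0. The pairing rests on the labels' statement that all patches came from the same carp. Deviations from the group means, over 49561 features averaging at least 1 CPM, correlated at 0.608, 0.663 and 0.519 for same-numbered RS and WS libraries and at -0.565 to -0.005 otherwise. Such deviations sum to 0 within a color, so the negative values follow in part from the positive ones. Mean fragment length was 356.1 and 347.1 bp in T-Redskin2 and T-Whiteskin2, against 289.0 to 292.3 bp in the other RS and WS libraries. A shared fish therefore cannot be told apart from other properties that same-numbered libraries share. Replicates within a color correlated at 0.369 to 0.738 and none was a duplicate. With the block, the p-values rest on how the RS over WS ratio varies between these same-numbered pairs. Without it, they rest on the spread between these libraries.

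Consistency is the smallest absolute log2 ratio over the 3 pairs. Named were the 12 most consistent features and the 12 most consistent annotated ones per direction, the 8 most abundant consistent ones, tested members of the carotenoid, fat and vitamin, xanthophore and melanocortin lists, and consistent listed lncRNAs. Not all 61 features so chosen are printed, and others of the same roles were added after their values were seen. Members and lists were chosen with earlier results of these data known. KEGG names were taken where pathway membership left 1 ortholog. Counts of near-identical copies may be split between features, and strand use in counting is not given in the sources used here. Scripts were tested on simulated counts. Alternatives were other tests, scalings, filters, pseudocounts and leaving out each pair; scaling by library totals was chosen after seeing the data. No epidermal marker list could be drawn from the annotation, so the skin label was not checked against one.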

Additional observations from a re-analysis of the deposited data

How the results depend on the processing

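The count of features past the adjusted threshold was 0 with the replicate block and 0 without it, and also with voom, RLE, the filter at a mean of 50, all 9 libraries, identical features kept once, robust fitting, FPKM, library totals and with any 1 pair left out. It was 220 with DESeq2, 95 with the likelihood ratio test, 53 with the exact test without a block and 602 with no filter, where 279939 features were tested. At an unadjusted p under 0.05 the count of 1089 became 271 without the replicate block, 4282 with DESeq2, 2149 with the likelihood ratio test, 375 with the exact test, 2451 with voom, 5232 with no filter, 1642 with all 9 libraries, 2792 and 2164 on log2(FPKM + 1) and log2(FPKM + 0.1), and 814 to 3093 with 1 pair left out. Of these, 39.9% were toward RS, against 15.8% with library totals, 13.6% and 12.7% on the FPKM scales, and 54.7% and 51.4% without pair 1 or pair 2. The causes of these moves were not tested.

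The 241 features consistent toward RS became 156 with a prior count of 5, 865 with no filter, 74 at a mean count of at least 50, 119 with library totals, 52 and 140 on the FPKM scales, and 1023 to 1995 with 1 pair left out, when only 2 pairs had to pass. The 403 toward WS became 257, 1457, 62, 737, 958 (log2(FPKM + 0.1)) and 1091 to 2828 in the same order. Of 1281 recomputed fold changes of 77 features, 1070 kept direction and side of the threshold, 209 kept direction and passed it, and 2 turned, both without pair 1, namely DN169894_c1_g4 (-2.29 to 0.11 over the pairs left out) and DN162538_c5_g1 (-1.39 to 0.24). These 2 were the only ones of the 77 whose signs differed between pairs. The others had the same sign in every pair, so that keeping direction with a pair left out was largely set by their choice. The many zeros of T-Redskin1 limit what can be said of features with few counts, since 7918 tested features were at 0 in it, against 1804 to 3035 in the other libraries.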
